A study of Mus musculus with 8 samples.

Results

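The serpin superfamily was described in the liver of OVX mice as 48 genes of the 19938 genes tested, namely those whose symbol starts with Serpin and that have a probe set naming that gene alone. The RefSeq gene table of the mouse assembly GRCm38.p6 holds 69 such symbols, 6 of them pseudogenes, and the other 21 have no probe set of their own here and were not analysed as single genes. The members were divided by the letter of the symbol into clades, with 15 genes in clade a, 24 in clade b, 2 each in clades f and i, and 1 each in clades c, d, e, g and h. All mice were female C57B1/6J mice ovariectomized (OVX) at 7 weeks of age, so that no array comes from a mouse with ovaries. The HFD group ate a high-fat diet and the HFD+WBM group the same kind of diet with freeze-dried white button mushroom (WBM) powder, both for 3 months, and food intake was matched by pair feeding. Liver RNA of 4 mice per diet, out of 8 mice per diet group, was hybridized to Mouse Gene 1.0 ST arrays (Affymetrix), 1 mouse per array.

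Serpins are proteins of a shared fold, most of which inhibit serine proteases by a suicide mechanism. The protease cuts an exposed loop of the serpin, the loop inserts into the body of the protein, and the trapped protease is cleared. Hepatocytes secrete many clade a serpins and the serpins of clades c, d, f and g into blood, where they restrain coagulation, fibrinolysis, complement and leukocyte proteases. Some members have left inhibition and carry hormones or fold collagen, and clade b serpins mostly stay inside cells. Serpina12 encodes vaspin, first known as an adipokine of visceral fat that inhibits kallikrein 7.

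In mouse, 14 of the 15 measured clade a genes lie in a single cluster on chromosome 12, and Serpina7 lies on the X chromosome. The promoters of Serpina12 and of Serpina1c, an alpha-1-antitrypsin gene of the same cluster but not adjacent to it, are shown because their diet differences lay far apart. Each line holds the 250 bases before the RefSeq start site on the minus strand of GRCm38.p6, 5' to 3', and capitals mark a match to the core letters of a site of the liver factor HNF1.
Serpina12, chr12:104044444-104044693: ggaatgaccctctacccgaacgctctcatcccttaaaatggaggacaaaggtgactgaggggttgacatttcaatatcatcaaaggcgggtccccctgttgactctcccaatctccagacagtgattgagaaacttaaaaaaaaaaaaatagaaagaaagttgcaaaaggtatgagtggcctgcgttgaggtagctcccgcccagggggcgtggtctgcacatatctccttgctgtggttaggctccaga
Serpina1c, chr12:103904951-103905200: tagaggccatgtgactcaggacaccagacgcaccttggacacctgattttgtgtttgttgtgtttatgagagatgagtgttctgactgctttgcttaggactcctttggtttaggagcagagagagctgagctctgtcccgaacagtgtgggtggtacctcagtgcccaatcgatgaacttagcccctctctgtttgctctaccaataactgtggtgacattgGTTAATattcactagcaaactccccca
Of 3 motifs searched on both strands, the first was the HNF1 core, spelled GTTAAT. It began at -27 from the start site of Serpina1c, and it was in 6.43% of the 32851 RefSeq promoters of this length and in 7 of the 49 promoters of the 41 members that have an entry (14.3%). Of 11 promoters of the hepatocyte serpins listed below, 4 held it. A TATA box, spelled TATAAA, was in 12.4% of all promoters and in 14 of the 49 (28.6%). The core of a nuclear receptor site, spelled AGGTCA, was in 14% of all promoters and in 16 of the 49 (32.7%). Matches to different motifs can share no more than 1 base, at an end. The Serpina12 window held none of the 3. A match of this kind is a description of letters, not of a bound site.

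The values are on the log2 scale. The array medians lay between 7.04 and 7.22, and the correlations between arrays between 0.916 and 0.972. HFD replicate 3 was the most distant array: over genes, its deviations from the mean of the 7 remaining arrays had a standard deviation of 0.68, where those 7 had 0.38 to 0.50. The hepatocyte markers that define the tissue were present on all arrays, with means of 11.69 or more, none of the 10 differed at a p under 0.05 before adjustment, and their summed level was 16.69 to 16.8 with HFD and 16.74 to 16.83 with HFD+WBM. Of 12 Kupffer cell and macrophage markers, 11 were lower with HFD+WBM at a p under 0.05 before adjustment, where 6.9% of all genes were lower. All 12 estimates were below 0 (median log2 fold change -0.69). The summed level of these markers was 13.22 to 13.77 with HFD and 12.67 to 13.16 with HFD+WBM. In whole liver, fewer cells of a type and less RNA per cell cannot be told apart.

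Across the superfamily, 7 of the 48 genes (14.6%) differed between the diets at a p under 0.05 before adjustment (limma), 5 lower and 2 higher with HFD+WBM. Over all genes the same threshold took 11.7%, with 6.9% lower and 4.85% higher, so that the share among serpins was near the background. The lower genes were Serpina12, Serpina7, Serpina16, Serpinb8 and Serpinb9, and the higher genes Serpina6 and Serpinb10. The split was 3 lower and 2 higher after centring each array on its median, and 4 lower and 0 higher after quantile normalization. None of the 48 genes, and none of all genes, had an adjusted p under 0.05 by limma with Benjamini-Hochberg adjustment, and the smallest adjusted p of any gene was 0.2. The study required a 2-fold change in addition to a p under 0.05, and at these thresholds 1 serpin was lower (Serpina12) and 0 were higher, against 0.497% and 0.266% of all genes, or 0.762% in both directions together. The values of the diets did not overlap for 3 serpins, all lower with HFD+WBM (Serpina10, Serpina12 and Serpinb9), which is 6.25% of the members against 8.23% of all genes (5.02% lower and 3.21% higher). The median log2 fold change of the 48 was -0.08, with 27 estimates below 0 and 21 above, and that of all genes was 0.01. The count lower was 8 if HFD replicate 3 was left out, 2 if HFD replicate 4 was, and 3 for HFD+WBM replicate 3 or 4. The count higher was 0 with HFD replicate 2 or HFD+WBM replicate 4 left out, and 1 with HFD replicate 1 or 4 or HFD+WBM replicate 1 or 3 left out. By clade, 3 of 15 clade a genes were lower and 1 higher, 2 of 24 clade b genes were lower and 1 higher, and the 9 genes of the other clades did not pass. Many members are dim in this tissue, and 32 of the 48 had a mean below the median of all genes (7.27), among them 21 of the 24 clade b genes.

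**Figure D1:**
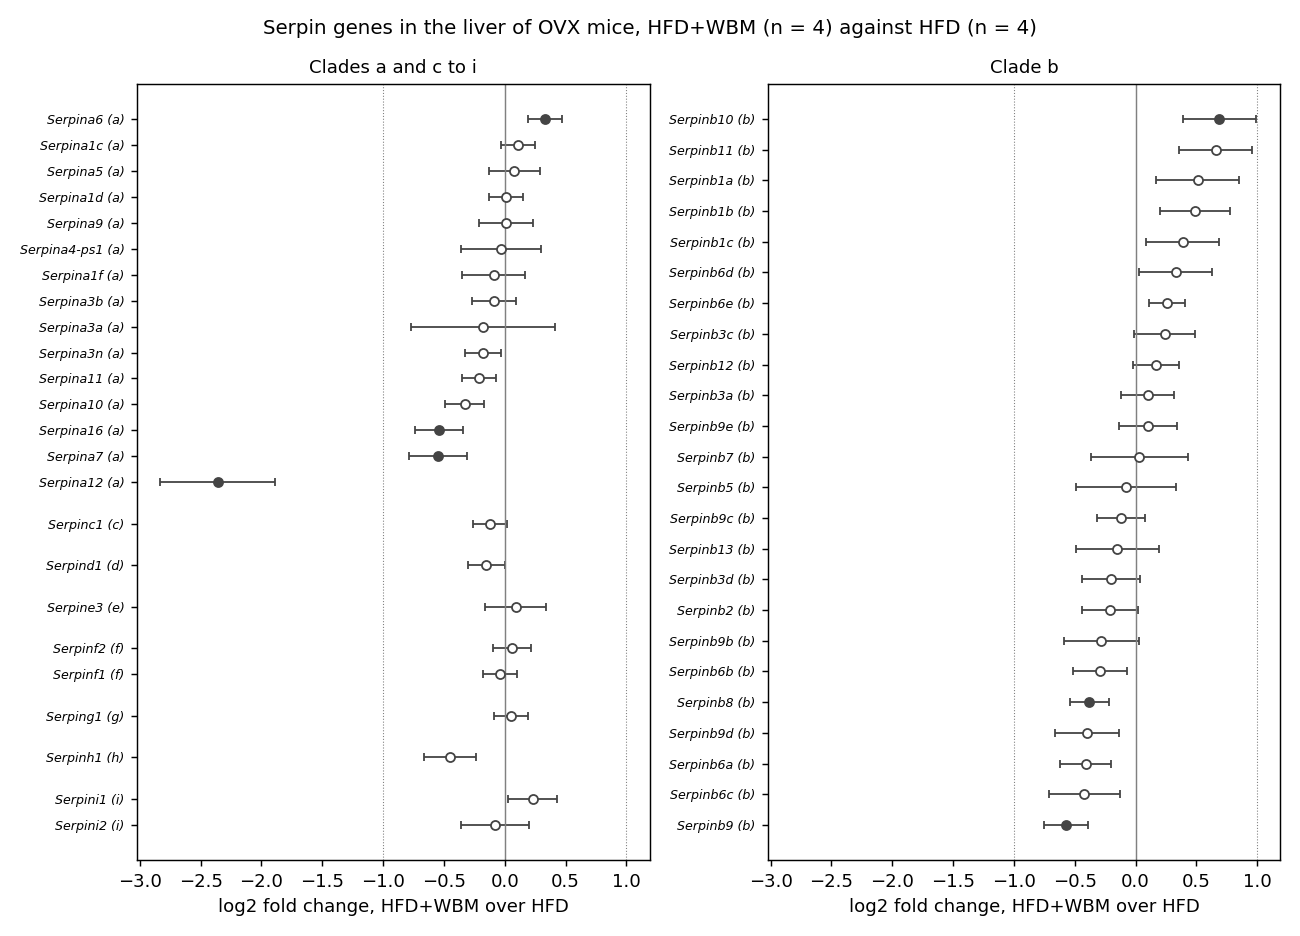
Log2 fold change (HFD+WBM over HFD, 4 mice each) of the 48 Serpin genes, with the clade letter after each symbol, bars for the limma standard error, filled points for a p under 0.05 before adjustment and dotted lines at a 2-fold change. Serpina12 lies at -2.36, and the other 47 genes lie between -0.57 and 0.69.

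Serpina12 was the member with the largest difference. In the HFD livers its log2 values were 7.30, 7.96, 8.13 and 8.25, and in the HFD+WBM livers 6.65, 6.01, 5.38 and 4.15. Every HFD+WBM mouse lay below every HFD mouse, and the values of the HFD+WBM mice were spread more widely. The means were 7.91 ± 0.43 and 5.55 ± 1.07 (SD, n = 4 each). The level was 5.13-fold lower with HFD+WBM, a log2 fold change of -2.36 (SE 0.47, 95% interval -3.42 to -1.3). Limma gave a p of 0.00062 before adjustment and an adjusted p of 0.35, and the exact two-sided permutation test over the 70 divisions of the 8 mice gave 0.029, the smallest p it can give.

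The size of the Serpina12 difference depended on the low end of the scale, where 1 mouse, HFD+WBM replicate 4, lay at 4.15. Without that mouse the log2 fold change was -1.89, or 3.72-fold lower, and leaving out HFD+WBM replicate 1 gave -2.73. With an offset of 64 added before the log it was -1.40, or 2.63-fold lower, and the adjusted p was 0.00092. With an offset of 16 it was -1.97 and the adjusted p 0.078, and with limma's prior variance allowed to vary with signal level the adjusted p was 0.0014. The difference had the same direction, a p under 0.05 before adjustment and more than 2-fold size in all 17 of these settings and omissions, while the adjusted p ranged from 0.00092 to 0.57. Not all of them could have moved the estimate. Averaging the probe sets of a gene repeated the reported fit, since no Serpin gene had more than 1. The varying prior variance, the equal-variance test and the replicate number as a block can change the p but not the estimate of -2.36.

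**Figure D2:**
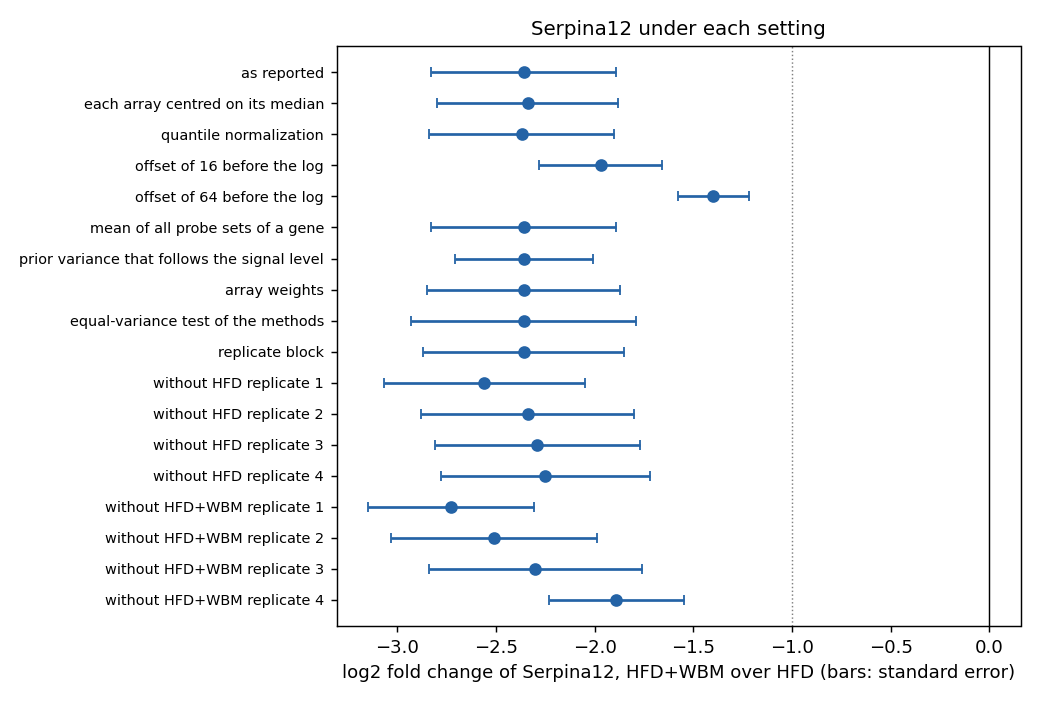
Log2 fold change of Serpina12 (HFD+WBM over HFD) as reported and under each of 17 other settings or omissions of 1 mouse, with bars for the standard error and a dotted line at a 2-fold change. All 18 estimates lie below the dotted line, from -2.73 without HFD+WBM replicate 1 to -1.40 with an offset of 64. Averaging probe sets, the varying prior variance, the equal-variance test and the replicate block cannot move the estimate here.

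Because vaspin was described in fat, adipocyte genes stand beside it. None of the 4 measured adipocyte markers of 5 passed the test, and their summed level was 8.03 to 8.99 with HFD and 8.09 to 8.71 with HFD+WBM, with no marker at 0. All 4 were dim, with means of 5.38 to 7.08, below the median of all genes (7.27). Detection calls were not used, so the presence of RNA from fat cells was not tested. Adipoq, the adipocyte hormone adiponectin, was 5.29 ± 0.38 with HFD and 5.48 ± 0.56 with HFD+WBM (SD, n = 4), and Lep, leptin, was 6.84 ± 0.54 and 6.91 ± 0.18. Their log2 fold changes were 0.20 (SE 0.30) and 0.07 (SE 0.26). Of the 4 markers, 2 estimates were above 0 and 2 below, the lowest being Retn at -0.61. In the wider list of 12 adipokine and adipocyte genes, 6 estimates were above 0 and 6 below. The lowest was Cidec at -0.95, which did not pass the test, and Fabp4, which passed, was at -0.92 (SE 0.19). Of the partners of vaspin, Klk7, the protease it inhibits, had a log2 fold change of 0.32 (SE 0.25, limma p = 0.24, exact permutation p = 0.371). Hspa5, the chaperone GRP78 that binds vaspin at the cell surface, was 12.48, 11.70, 12.10 and 11.86 with HFD and 11.62, 11.29, 11.38 and 11.65 with HFD+WBM. All 4 HFD+WBM values of Hspa5 were below the HFD values, a log2 fold change of -0.55 (SE 0.20, limma p = 0.019, adjusted p = 0.38, exact permutation p = 0.029).

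Serpina12 was then set against the serpins that hepatocytes secrete. Of 17 listed hepatocyte serpins, 12 were measured alone: Serpina1c, Serpina1d, Serpina3n, Serpina6, Serpina7, Serpina10, Serpina11, Serpinc1, Serpind1, Serpinf1, Serpinf2 and Serping1. Of these, 1 was lower (Serpina7), 1 was higher (Serpina6) and 10 did not pass at a p under 0.05 before adjustment. Together this is 16.7% of the 12, against 11.7% of all genes. All 12 differed by under 1.5-fold, the largest by 1.47-fold. Their median log2 fold change was -0.08, and it stayed between -0.13 and -0.04 in all settings tried. Their SDs within a diet were 0.07 to 0.31 with HFD and 0.06 to 0.41 with HFD+WBM, where Serpina12 had 0.43 and 1.07. The signal levels also differ. The means of the 12 genes over all arrays were 9.88 to 13.96, and that of Serpina12 was 6.73, below the median of all genes (7.27). The part of signal level in the spread and in the fold size was not tested.

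Within each mouse the log2 value of each of the 12 genes was subtracted from that of Serpina12, and the diet difference of the result is the amount by which the change of Serpina12 exceeds that of the other gene. It ran from -2.69 against Serpina6 to -1.81 against Serpina7. For 11 of the 12 genes the diets did not overlap, with an exact two-sided permutation p of 0.029 each, the smallest this design can give. Against Serpina7 the diets overlapped and the exact p was 0.057. With an offset of 64, 10 of the 12 did not overlap, and 12 did not overlap when replicate 1 of either diet was left out. All 12 comparisons share the Serpina12 values, so that they are not independent of each other. The Serpina12 values alone did not overlap either, with the same exact permutation p of 0.029. Since the 12 genes differed by under 1.5-fold, the comparisons largely restate that result and add no separate evidence.

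The mice did not order the same way for Serpina12 and for the secreted serpins. HFD replicate 3, whose array lay farthest from the rest, held the highest HFD value for 10 of the 12 genes, and HFD replicate 4 held it for Serpina12. HFD+WBM replicate 4 held the highest HFD+WBM value for 6 of the 12 and the lowest one for Serpina12, and HFD+WBM replicate 3 held the lowest for 8 of the 12.

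**Figure D3:**
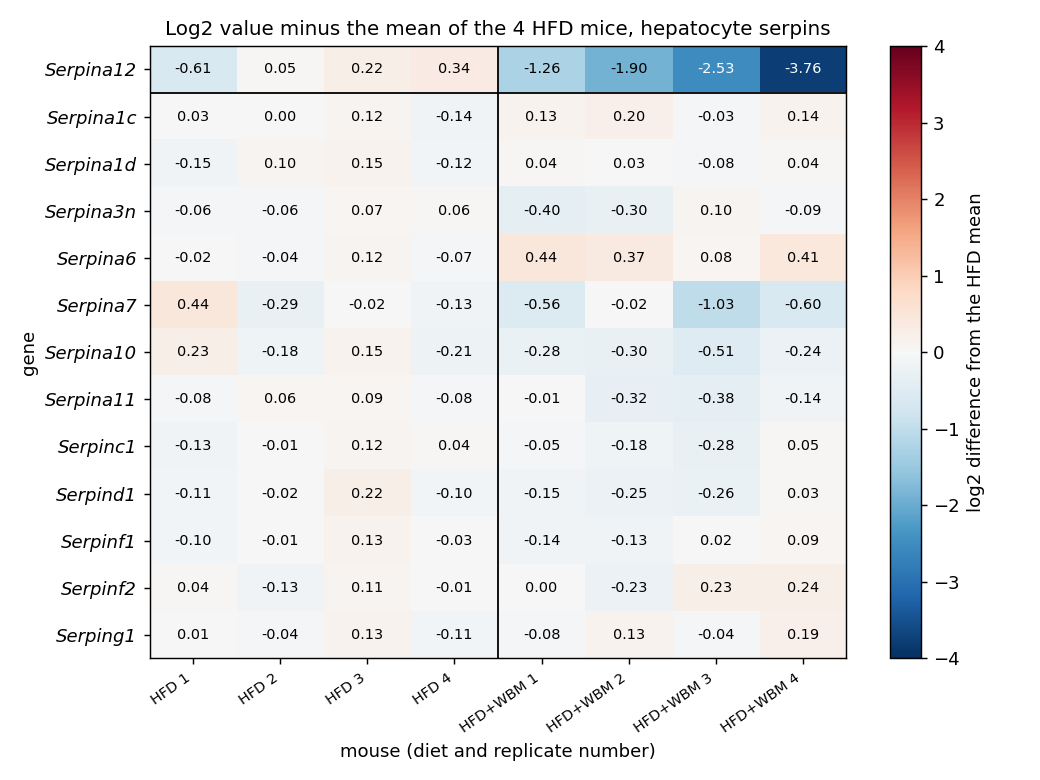
Log2 value of Serpina12 and of the 12 measured hepatocyte serpins in each of the 8 mice, minus the mean of the 4 HFD mice for that gene, with the color scale from -4 to 4. The Serpina12 row is lowest in HFD+WBM replicate 4, at a log2 value of 4.15 against the HFD mean of 7.91, and the widest of the other rows is that of Serpina7, from 9.34 to 10.81.

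The hormone carriers of clade a moved in opposite directions. Serpina6 encodes corticosteroid-binding globulin, and its values were 13.32, 13.30, 13.46 and 13.27 with HFD and 13.78, 13.71, 13.42 and 13.75 with HFD+WBM. Only HFD+WBM replicate 3 fell within the HFD range. The difference was 0.33 (SE 0.14), 1.25-fold higher, with a limma p of 0.046 before adjustment, an adjusted p of 0.42 and an exact permutation p of 0.057. Its p stayed under 0.05 when HFD replicate 3 (0.041) or HFD+WBM replicate 3 (0.020) was left out, and it had a limma p of 0.078 to 0.11 without any of the other 6 mice. Nr3c1, the glucocorticoid receptor, had a log2 fold change of -0.01 (SE 0.15). Serpina7 encodes thyroxine-binding globulin, and its values were 10.81, 10.08, 10.35 and 10.24 with HFD and 9.81, 10.35, 9.34 and 9.77 with HFD+WBM. HFD+WBM replicate 2 equalled the HFD replicate 3 value, and the other HFD+WBM mice were below all HFD mice. The difference was -0.55 (SE 0.24), 1.47-fold lower, with a limma p of 0.045 before adjustment, an adjusted p of 0.42 and an exact permutation p of 0.114. Its p stayed under 0.05 when HFD replicate 2 (0.035) or HFD+WBM replicate 2 (0.011) was left out, and it had a limma p of 0.058 to 0.13 without any of the other 6 mice.

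The antitrypsins showed no difference past the test. Serpina1c and Serpina1d encode forms of alpha-1-antitrypsin, the blood inhibitor of neutrophil elastase, and belong to a family of near-identical mouse copies, so that their probe sets may share signal. Serpina1c was 13.90 ± 0.11 with HFD and 14.01 ± 0.10 with HFD+WBM (SD, n = 4), a difference of 0.11 with a 95% interval of -0.20 to 0.41. Serpina1d was 12.93 ± 0.15 and 12.95 ± 0.06, a difference of 0.01 with an interval of -0.30 to 0.32. A pair of probe sets that name Serpina1a to Serpina1e together differed by 0.11 and 0.05. Elane, neutrophil elastase itself, was 7.17 ± 0.41 with HFD and 7.72 ± 0.34 with HFD+WBM, a difference of 0.55 (SE 0.24, limma p = 0.048, adjusted p = 0.42, exact permutation p = 0.086), with overlapping diets.

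Serpina3n, the mouse antichymotrypsin and an acute phase gene, was 12.02 ± 0.07 with HFD and 11.85 ± 0.22 with HFD+WBM, a difference of -0.18 (95% interval -0.52 to 0.17, limma p = 0.28, exact permutation p = 0.200). Its HFD+WBM values of 11.62, 11.72, 12.12 and 11.93 lay on both sides of the narrow HFD range of 11.96 to 12.09. Of 19 other acute phase genes, 7 were lower and 0 higher at a p under 0.05 before adjustment, which is 36.8% of the list, where 6.9% of all genes were lower and 4.85% higher. Among them, Lcn2, lipocalin 2, changed by -1.46 (SE 0.28), and Saa1 and Saa2, the serum amyloids, by -1.36 (SE 0.34) and -1.26 (SE 0.26). Orm1, orosomucoid, changed by -0.49 (SE 0.13), with limma adjusted p from 0.35 to 0.37 for the 4. The 95% interval of Serpina3n lay above all 3 of the larger of these estimates and reached the estimate of Orm1. The median over the 19 was -0.19 against 0.01 over all genes, and the count lower was 5 when replicate 1 of either diet was left out and 8 without HFD replicate 2.

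Serpina10 encodes the protein Z-dependent inhibitor of coagulation factor X, and its values were 10.79, 10.38, 10.71 and 10.35 with HFD and 10.28, 10.26, 10.05 and 10.32 with HFD+WBM. The diets did not overlap, where 5.02% of all genes did not overlap in this direction. The difference was small, -0.33 (SE 0.16, limma p = 0.069, exact permutation p = 0.029). Serpina11, a liver serpin without a known inhibitory role, was 9.99 ± 0.09 and 9.78 ± 0.17, a difference of -0.21 (SE 0.14, limma p = 0.18, exact permutation p = 0.114). Serpina16, a little-studied member, was 6.56, 6.92, 6.30 and 7.13 with HFD and 6.16, 6.15, 6.09 and 6.35 with HFD+WBM, with overlap at the lowest HFD mouse. Its difference was -0.54 (SE 0.20, limma p = 0.021, adjusted p = 0.39, exact permutation p = 0.057), and its p was 0.058 if HFD replicate 2 was left out and 0.064 for HFD replicate 4. The other 6 clade a genes on chromosome 12 (Serpina1f, Serpina3a, Serpina3b, Serpina4-ps1, Serpina5 and Serpina9) had estimates from -0.18 to 0.08 and did not pass. Among them Serpina3a had a value of 5.08 in HFD replicate 3, where the remaining HFD livers had 7.68 to 8.22, which leaves its difference of -0.18 with an interval from -1.49 to 1.14.

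Along chromosome 12 the difference of Serpina12 was not shared by the genes beside it. The order of the 14 measured genes is Serpina10, Serpina6, Serpina16, Serpina1f, Serpina1d, Serpina1c, Serpina11, Serpina9, Serpina12, Serpina4-ps1, Serpina5, Serpina3a, Serpina3b and Serpina3n. Serpina9, the nearest coding gene on one side, differed by 0.01 (SE 0.22), and Serpina5, the protein C inhibitor and the nearest coding gene on the other side, by 0.08 (SE 0.21). The 13 genes other than Serpina12 ran from -0.54 to 0.33, and 95% intervals of all 13 lay above the estimate of Serpina12. The interval of Serpina12 itself ran from -3.42 to -1.3 and overlapped that of Serpina3a (-1.49 to 1.14). The difference between these 2 genes was not tested.

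**Figure D4:**
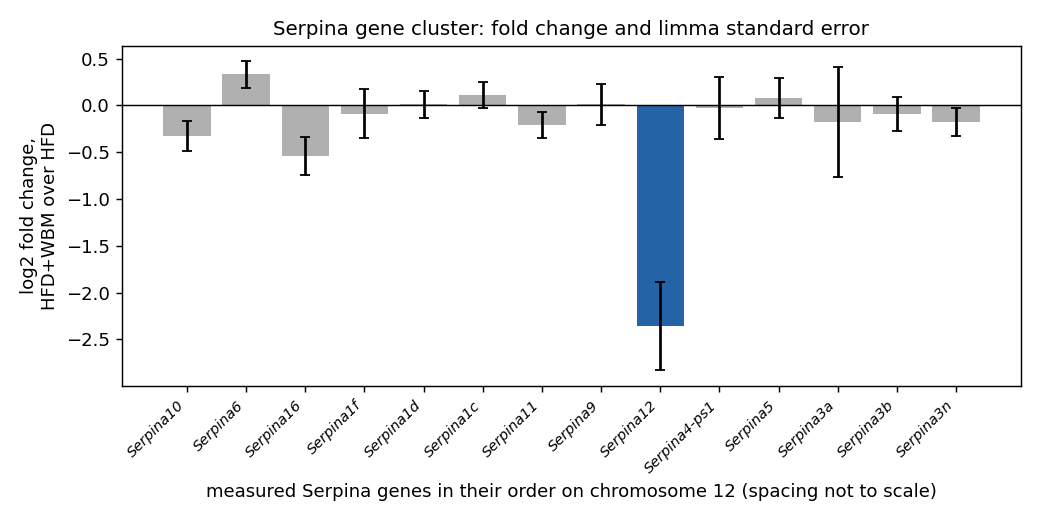
Log2 fold change (HFD+WBM over HFD, 4 mice each) of the 14 measured Serpina genes in their order on chromosome 12, with bars for the limma standard error and gene spacing not to scale. Serpina12, the ninth gene, stands at -2.36, and the other 13 lie between -0.54 and 0.33.

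The serpins of coagulation, fibrinolysis and complement in clades c, d, f and g varied little. Serpinc1, antithrombin, was 12.93 ± 0.10 with HFD and 12.82 ± 0.15 with HFD+WBM (SD, n = 4), a difference of -0.12 with a 95% interval of -0.44 to 0.20. Serpind1, heparin cofactor II, was 12.52 ± 0.15 and 12.36 ± 0.14, a difference of -0.15 with an interval of -0.48 to 0.18. Both of these genes encode inhibitors of thrombin, and neither passed the test. Serpinf2, the plasmin inhibitor alpha-2-antiplasmin, differed by 0.06 (interval -0.29 to 0.41). Serping1, the C1 inhibitor of complement and of plasma kallikrein, differed by 0.05 (interval -0.26 to 0.36). Serpinf1, pigment epithelium-derived factor, which does not inhibit proteases, differed by -0.04 (interval -0.34 to 0.27). These intervals leave room for changes of the size seen for Serpina6.

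Clade b held 2 lower genes and 1 higher gene at a p under 0.05 before adjustment, or 12.5% of the clade, near the 11.7% of all genes. Its estimates were split evenly around 0, with 12 below and 12 above. Serpinb9 encodes the intracellular inhibitor of granzyme B, and its values were 7.27, 7.38, 7.41 and 7.77 with HFD and 6.99, 6.52, 6.90 and 7.15 with HFD+WBM. The diets did not overlap, and the difference was -0.57 (SE 0.18), 1.48-fold lower, with a limma p of 0.012, an adjusted p of 0.37 and an exact permutation p of 0.029. Its limma p was 0.0095 to 0.039 without any 1 of the 8 mice. Serpinb9 has relatives by name on chromosome 13, and of these Serpinb9b, Serpinb9c, Serpinb9d and Serpinb9e had estimates from -0.40 to 0.10, none past the test. Beside Serpinb9, 11 of 12 Kupffer cell and macrophage markers were lower at a p under 0.05 before adjustment, against 6.9% of all genes. Estimates over the 12 ran from -0.94 to -0.52, and 0 of 10 measured T, NK and B lymphocyte markers passed. Their summed levels were 13.22 to 13.77 with HFD and 12.67 to 13.16 with HFD+WBM for the macrophage list, and 9.19 to 9.63 and 9.31 to 9.80 for the lymphocyte list. The part of these cells in the Serpinb9 difference was not tested.

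Serpinb8, an inhibitor of furin, was 7.91, 8.21, 8.05 and 8.38 with HFD and 8.02, 7.66, 7.58 and 7.76 with HFD+WBM. HFD+WBM replicate 1 was the only HFD+WBM mouse within the HFD range. The difference was -0.38 (SE 0.16, limma p = 0.044, adjusted p = 0.42, exact permutation p = 0.057), and its p was 0.076 to 0.12 without HFD replicate 2, HFD replicate 4 or any 1 of HFD+WBM replicates 2, 3 and 4. Serpinb10, which blood-forming myeloid cells express, was 4.25, 3.98, 3.37 and 4.28 with HFD and 4.07, 4.32, 5.26 and 5.00 with HFD+WBM. It lay near the dim end of the scale and its difference of 0.69 (SE 0.30, limma p = 0.047, adjusted p = 0.42, exact permutation p = 0.114) was 0.17 with an offset of 64. Its p was 0.077 to 0.13 without HFD replicate 2, HFD replicate 3, HFD+WBM replicate 3 or HFD+WBM replicate 4. Serpinb11 showed a similar estimate of 0.66 (SE 0.30, limma p = 0.057, exact permutation p = 0.114). Serpinb6a, an inhibitor of cathepsin G, was 8.80 ± 0.22 with HFD and 8.39 ± 0.35 with HFD+WBM, a difference of -0.41 (SE 0.21, limma p = 0.075, exact permutation p = 0.114). Serpinb1a, an inhibitor of neutrophil proteases, was 6.96 ± 0.54 and 7.47 ± 0.58, a difference of 0.51 (SE 0.34, limma p = 0.16, exact permutation p = 0.257), and 0 of 7 neutrophil markers passed the test. The other 18 clade b genes did not pass, with estimates from -0.42 to 0.49.

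**Figure D5:**
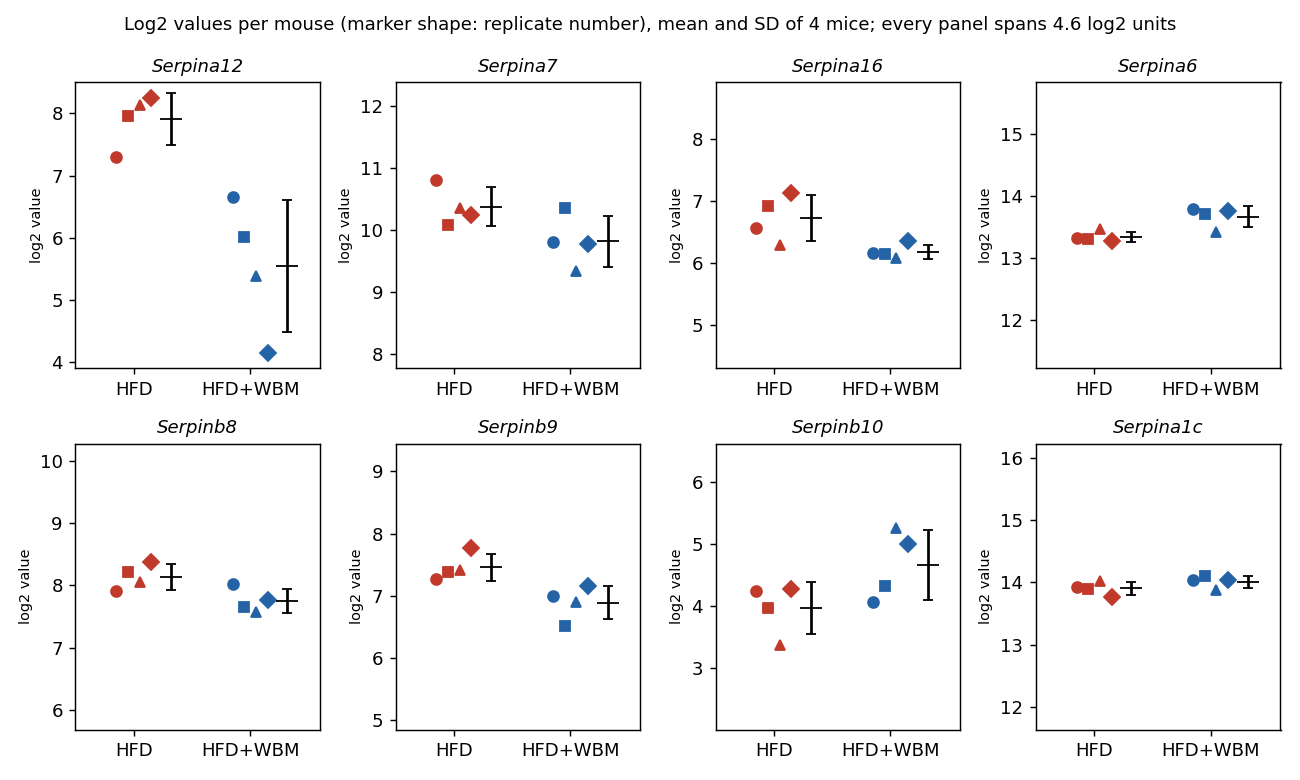
Log2 values of 8 Serpin genes in each mouse (marker shape for the replicate number), with the mean and SD of the 4 HFD and 4 HFD+WBM mice, every panel spanning the same range of log2 units. The diets do not overlap for Serpina12 and Serpinb9, and they overlap in at least 1 mouse for Serpina7, Serpina16, Serpina6, Serpinb8, Serpinb10 and Serpina1c.

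Serpinh1, the only member of clade h, encodes the collagen chaperone HSP47. Its values were 7.30, 7.06, 6.87 and 7.47 with HFD and 6.96, 7.06, 6.41 and 6.48 with HFD+WBM, so that the diets overlapped. The difference was -0.45 (SE 0.21, limma p = 0.057, exact permutation p = 0.114), and its p was under 0.05 when HFD replicate 3 (0.028), HFD+WBM replicate 1 (0.048) or HFD+WBM replicate 2 (0.030) was left out. The collagens that this chaperone folds were lower, Col1a1 by -0.97 (SE 0.31, limma p = 0.011, adjusted p = 0.37, exact permutation p = 0.057) and Col3a1 by -0.82 (SE 0.33, limma p = 0.033, adjusted p = 0.40, exact permutation p = 0.086). Of the 8 stellate cell markers, which include both collagens, 3 were lower at a p under 0.05 before adjustment, against 6.9% of all genes. Estimates were below 0 for 7 of the 8 (median -0.35), with a summed level of 12.32 to 12.89 with HFD and 12.11 to 12.56 with HFD+WBM. The part of stellate cells in the Serpinh1 value was not tested. In clade i, Serpini1, neuroserpin, differed by 0.23 (SE 0.20) and Serpini2, pancpin, by -0.08 (SE 0.28). Serpine3, the clade e member measured alone, differed by 0.09 (SE 0.25).

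Among the partners of serpins, 1 of 22 measured protease targets was lower and 1 higher at a p under 0.05 before adjustment (9.09% together), near the 11.7% of all genes. Plau, urokinase, was 5.47 to 6.94 with HFD and 4.69 to 5.69 with HFD+WBM, a difference of -0.89 (SE 0.33, limma p = 0.022, adjusted p = 0.39, exact permutation p = 0.114). The thrombin, plasmin and complement proteases of the list did not pass. The count lower was 0 without HFD replicate 3, HFD replicate 4 or HFD+WBM replicate 3, and leaving out HFD+WBM replicate 1 gave 3. The count higher was 1 when replicate 3 of either diet was left out and 0 without any 1 of the other mice. The median over the 22 was -0.05.

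Of 26 protease inhibitors outside the Serpin symbols, 4 were lower and 1 higher (19.2% together, against 11.7% of all genes). Wfdc2, a whey acidic protein, was 7.59, 7.07, 7.88 and 7.98 with HFD and 5.89, 6.37, 6.46 and 6.68 with HFD+WBM, a difference of -1.28 (SE 0.24, limma p = 0.00041, adjusted p = 0.35, exact permutation p = 0.029) with no overlap. Cst3, cystatin C, and Cstb, cystatin B, inhibitors of cysteine proteases, differed by -0.32 (SE 0.13, limma p = 0.038, exact permutation p = 0.029) and -0.40 (SE 0.17, limma p = 0.041, exact permutation p = 0.057). Fetub, fetuin B, a liver inhibitor of metalloproteases, was 12.11 to 12.26 with HFD and 12.48 to 12.74 with HFD+WBM, a difference of 0.38 (SE 0.13, limma p = 0.017, adjusted p = 0.38, exact permutation p = 0.029) with no overlap. Agt, angiotensinogen, which has the serpin fold without the symbol, differed by 0.14 (SE 0.14). The count lower was 1 if HFD replicate 3, HFD+WBM replicate 2 or HFD+WBM replicate 3 was left out and 2 for HFD replicate 4. The count higher was 2 with HFD replicate 3 left out and 0 for HFD+WBM replicate 4.

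The list of receptors and cofactors also holds Col1a1 and Col3a1, the collagens that the Serpinh1 product folds, which were counted among the stellate cell markers too. Of its 12 measured genes, 3 were lower (Col1a1, Hspa5 and Col3a1) and 2 higher, which is 41.7% of the list, where 6.9% of all genes were lower and 4.85% higher. The diets did not overlap for 25% of the list, against 8.23% of all genes. Vldlr, a receptor that clears serpin and protease complexes, was 8.58, 8.73, 8.19 and 8.54 with HFD and 9.39, 9.34, 9.15 and 9.52 with HFD+WBM. All 4 HFD+WBM values lay above the HFD values, a difference of 0.84 (SE 0.16, 1.79-fold, limma p = 0.00051, adjusted p = 0.35, exact permutation p = 0.029). The count lower was 1 without HFD+WBM replicate 2, and the count higher was 1 without HFD replicate 1 or any 1 of HFD+WBM replicates 2, 3 and 4, and 4 without HFD+WBM replicate 1. Of 12 measured adipokine and adipocyte genes, 1 was lower (8.33%, against 6.9% of all genes), Fabp4, the fatty acid binding protein of adipocytes and macrophages, with a difference of -0.92 (SE 0.19, limma p = 0.00086, adjusted p = 0.35, exact permutation p = 0.029) and no overlap. The median over the 12 was 0.01, and the count lower was 2 without HFD replicate 1, HFD replicate 2 or HFD+WBM replicate 4.

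Among the 9969 genes with a mean above the median of all genes, the 5 whose values over the 8 arrays were most like those of Serpina12 were Nme1, Tmem267, Gga2, Cmah and Pdgfa, with Pearson correlations of 0.982, 0.960, 0.939, 0.938 and 0.938. The 8 points share the diet difference, and with the diet means removed the correlations were 0.94, 0.89, 0.90, 0.74 and 0.80. The 5 genes were picked as the highest of 9969 over these same 8 arrays. High values with and without the diet means therefore follow in part from the choice. Tmem267 was 9.30, 9.18, 9.49 and 9.42 with HFD and 9.07, 8.60, 7.97 and 7.75 with HFD+WBM, with its lowest value in the same mouse as Serpina12. Nme1, a nucleoside diphosphate kinase, varied over a narrower range, from 8.91 to 8.97 with HFD and from 8.13 to 8.72 with HFD+WBM. Within the superfamily the correlation with Serpina12 was highest for Serpinb8 (0.81) and lowest for Serpinb10 (-0.80), also over 8 arrays that share the diets.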

How the data were processed

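The arrays hold liver RNA of OVX mice, 4 on HFD and 4 on HFD+WBM, and samples were grouped by the submitters' labels, which name separate liver specimens. Before deposit, the authors subtracted background, normalized the intensities and summarized probe sets by IterPLIER (Affymetrix Power Tools 1.8.6 per the submitters' notes). The deposited table holds log2 values of 28944 probe sets, from 0.0002 to 14.78. The sources used here do not give an offset before the log, the method of normalization between arrays or a genome build of the probe sets. Detection calls were not used here, so low values carry no background limit. The number of arrays limits the precision.

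The platform annotation gives 1 gene for 21789 probe sets, several for 1621 and none for 5534. By gene number, 21698 names matched the RefSeq table of GRCm38.p6, and 91 were kept as annotated. The brightest probe set stood for each of 19938 genes, and no Serpin gene had more than 1. The diets were compared in all genes by limma (3.58.1, R 4.3.3; lmFit and eBayes) without covariates, with Benjamini-Hochberg adjustment over all genes, a fit that was also tested on simulated data. Exact permutation tests were two-sided over 70 divisions of the mice. Promoters and their coordinates are those of RefSeq (GRCm38.p6).

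The members and the lists (hepatocyte serpins, protease targets, other inhibitors, receptors and cofactors, acute phase genes, adipokines and cell type markers) were chosen with earlier results of these data known, so no list was tested as a set. Named genes were the Serpin genes with a p under 0.05 or a 2-fold change, Serpina12, the hepatocyte serpins, the extremes of each clade, at most the 4 genes of lowest p in every other list, and the 5 genes most correlated with Serpina12. Adipoq, Agt, Klk7, Lep and Nr3c1 were added for their known roles, and the other Serpin genes named were chosen after their values were seen. The marker lists not given elsewhere were counted at a p under 0.05 before adjustment, where 6.9% of all genes were lower and 4.85% higher. Of these lists, 2 of 6 endothelial markers and 1 of 4 keratinocyte and mesothelium markers were lower. In addition, 1 of 5 measured cholangiocyte markers was higher, and 0 of 4 mast cell and basophil markers passed.

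Other settings were median centring, quantile normalization, offsets of 16 and 64 before the log, the 50% of genes with the highest mean, averaging the probe sets of each gene, a prior variance varying with signal level, array weights, an equal-variance test without moderation, the replicate number as a block, omission of each mouse and a threshold of 1.5-fold.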

Additional observations from a re-analysis of the deposited data

Results flagged for a closer look

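Of 96 sets of 4 values (48 genes in each diet), 1 was flagged by Dixon's rule for an outlying value. Serpinb12, a clade b serpin, had a value of 8.45 in HFD replicate 3, where the remaining HFD livers had 7.83 to 7.93, a gap of 0.837 of the whole range, above Dixon's 95% critical value for 4 samples. Chance alone marks about 1 in 20 such sets, or about 5 of the 96. HFD replicate 3 is also the array that lay farthest from the others. Serpina3a was lower there by more log2 units, at 5.08 where the remaining HFD livers had 7.68 to 8.22, but was not flagged by this rule.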

How the results depend on the processing

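No serpin with a p under 0.05 before adjustment changed direction in any setting. Of the named serpins that did not pass, Serpina1d (0.01) was -0.01 after quantile normalization, -0.04 without HFD replicate 1 and -0.03 without HFD replicate 4. Serpine3 (0.09) was -0.01 without HFD replicate 1 and -0.09 when HFD+WBM replicate 1 was left out, Serpinf1 (-0.04) was 0.01 without HFD replicate 3, and Serpini2 (-0.08) was 0.19 without HFD replicate 2. Of the 5 lower and 2 higher serpins at a p under 0.05 before adjustment, 3 lower remained after median centring and 8 were lower with an offset of 64. The count higher was 0 after quantile normalization and 1 with an offset of 16, an offset of 64, the 50% of genes with the highest mean, a prior variance varying with signal level, or the equal-variance test. With 1 mouse left out, the count lower ran from 2 (without HFD replicate 4) to 8 (without HFD replicate 3) and the count higher from 0 to 2. At the study's thresholds the counts stayed at 1 lower and 0 higher without any 1 mouse. They were 0 lower among the 50% of genes with the highest mean, where Serpina12 itself was not tested, and 1 higher (Serpinb10) at 1.5-fold. The log2 fold change of Serpina12 ran from -2.73 to -1.89 without 1 mouse, the hepatocyte serpin median from -0.13 to -0.04, and the number of hepatocyte serpins without overlap from 11 to 12.

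Without 1 mouse, the acute phase count lower ran from 5 to 8 and higher from 0 to 0, the adipokine count lower from 1 to 2 and higher from 0 to 1, the inhibitor count lower from 1 to 4 and higher from 0 to 2, the target count lower from 0 to 3 and higher from 0 to 1, and the receptor and cofactor counts from 1 to 4 in both directions. With an offset of 16 there were 2 lower targets and 2 lower adipokine genes, and after quantile normalization 1 lower inhibitor. The causes were not tested.

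The replicate numbers were not used as pairs in the reported fit. Same-numbered mice deviated from their diet means with correlations of -0.117 to -0.017, and differently numbered mice with correlations of -0.204 to 0.194. Such correlations cannot exclude that mice were paired by design. With the replicate number as a block, 3 serpins were lower and 0 higher, 1 inhibitor was lower and 0 higher, 0 targets were higher and 2 adipokine genes were lower. Serpina12 kept a limma p of 0.0029 with the block.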

Other observations

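Probe sets that name several serpin genes at once stand outside the comparison of single genes. The 3 probe sets that name Serpinb9d, Serpinb9e, Serpinb9f and Serpinb9g together, relatives of Serpinb9 by name, differed between the diets by 0.00, 0.31 and 0.33 (HFD+WBM minus HFD, log2). Their means were 5.78 ± 0.51, 6.13 ± 0.30 and 5.90 ± 0.50 with HFD and 5.79 ± 0.19, 6.44 ± 0.34 and 6.23 ± 0.30 with HFD+WBM (SD, n = 4), so that each difference was smaller than the larger SD of its diets. None of the 3 was lower with HFD+WBM, as Serpinb9 was. The 2 probe sets that name Serpina1a to Serpina1e together were 13.58 ± 0.10 and 13.84 ± 0.10 with HFD and 13.69 ± 0.09 and 13.89 ± 0.01 with HFD+WBM.

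On chromosome 1, 11 clade b genes had a median log2 fold change of 0.03. At a p under 0.05 before adjustment 1 was lower (Serpinb8) and 1 higher (Serpinb10), together 18.2%, against 11.7% of all genes. On chromosome 13, 13 clade b genes had a median of -0.12, with 1 lower (Serpinb9) and 0 higher, or 7.69%.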
